A study of Mus musculus with 9 samples.

Results

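Glutathione S-transferases (GSTs) were followed at the RNA level in 9 mouse livers, as 10 genes of the cytosolic family. The genes were taken by symbol, with the condition of a value above 0 in at least 1 liver, and all 10 of the 10 met it, out of 23183 gene symbols in the deposited tables. They were Gstp1 and Gstp2 of the Pi class, Gsta2, Gsta3 and Gsta4 of the Alpha class, Gstm1, Gstm2, Gstm3 and Gstm6 of the Mu class, and Gstt1 of the Theta class. The livers came from male C57BL/6J mice, an inbred strain with no engineered allele in the labels, at 100 days of age. A normal diet was fed to 3 of them (ND, mice 6, 7 and 9) and a high-fat diet to another 3 (HFD, mice 1, 2 and 3). The last 3 ate the high-fat diet and took 50 mg/kg a day by mouth of PRF, a polymethoxyflavone-rich fraction of Citrus sunki leaf (PRF 50, mice 3, 9 and 10). The study asked whether PRF counters diet-induced obesity. PRF is a mixture, a single dose was sequenced, and mice were fasted before the livers were taken, so the values describe fasted livers. Each liver gave 1 library of poly(A) RNA, and the deposited value of a gene was read as log2(FPKM + 1), where FPKM is fragments per kilobase of transcript scaled to depth.

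GSTs join the thiol of glutathione to electrophilic compounds, which makes them more soluble and ready for export from the cell. The classes differ in sequence and in the compounds they prefer, and hepatocytes hold them at some of the highest levels in the body. In mouse liver the Pi class is known to be more abundant in males, and several Alpha and Mu genes are known to be inducible by plant compounds and drugs.

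Of the hepatocyte markers Alb, Apoa1, Apob, Ttr, Serpina1a, Tf, Fgb, Ahsg, Cyp2e1 and Hnf4a, 9 were in the tables. Apoa1 was the most abundant of them, and the sum of the 9 lay between 24052 and 33607 FPKM in the 9 livers. The defining marker Alb was listed at 0 in all 9 livers. A value of exactly 0 in these tables is therefore given only as listed at 0. The tables hold no read counts, so the depth behind each value is unknown. Relative to HFD liver 1, depths estimated from the low values were 1.17 and 1.60 in HFD livers 2 and 3, between 1.06 and 1.15 in the ND livers, and 0.981, 1.51 and 0.962 in PRF 50 livers 3, 9 and 10. The highest log2 value of any gene was 22.44 in HFD liver 2, against 14.10 to 14.64 in the other livers.

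Most of the genes lie in clusters of similar copies, but Gsta3 is on chromosome 1, apart from Gsta2 and Gsta4 on chromosome 9. On GRCm38, the Pi genes Gstp1 (chr19:4035407-4037985, minus strand) and Gstp2 (chr19:4040285-4046023, minus strand) are neighbours, and their coding sequences are 98.1% identical. The Mu genes Gstm1, Gstm2, Gstm3 and Gstm6 lie side by side on chromosome 3, with coding identities between 76.9% and 85.1%. Of all windows of 100 bases in the transcript, 52.8% for Gstp1, 63.5% for Gstp2 and 35% for Gsta2 also occur in a transcript of another gene. For Gsta2 these other genes are Gm10639, Gsta1 and Gm3776. The share was 13.8% for Gstm3 and 9.05% for Gstm1, and 0 for Gsta3, Gsta4 and Gstt1. How the authors divided such reads is not known, so the single values of Gstp1, Gstp2 and Gsta2 are uncertain, and the Pi class is also given as a sum.

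On the FPKM scale, which allows genes to be compared, the order of the mean levels differed between the groups. In the ND livers Gstp1 was at the top with 1491 FPKM, followed by Gsta3 with 1200 and Gstm1 with 970. In the HFD livers Gsta3 led with 1352 FPKM, before Gstm1 with 597, Gstp1 with 398 and Gstt1 with 373. In the PRF 50 livers Gstp1 was at the top again with 1733 FPKM, before Gsta3 with 879 and Gstm1 with 506. These 4 genes were the highest in each group, and Gstp2 was among the lowest, with 8.21, 2.16 and 5.35 FPKM in the ND, HFD and PRF 50 livers. Gstp1 and Gstt1 in the HFD livers were neighbours in the order with overlapping values, as were Gstp1 and Gsta3, and Gsta3 and Gstm1, in the ND livers.

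**Figure D1:**
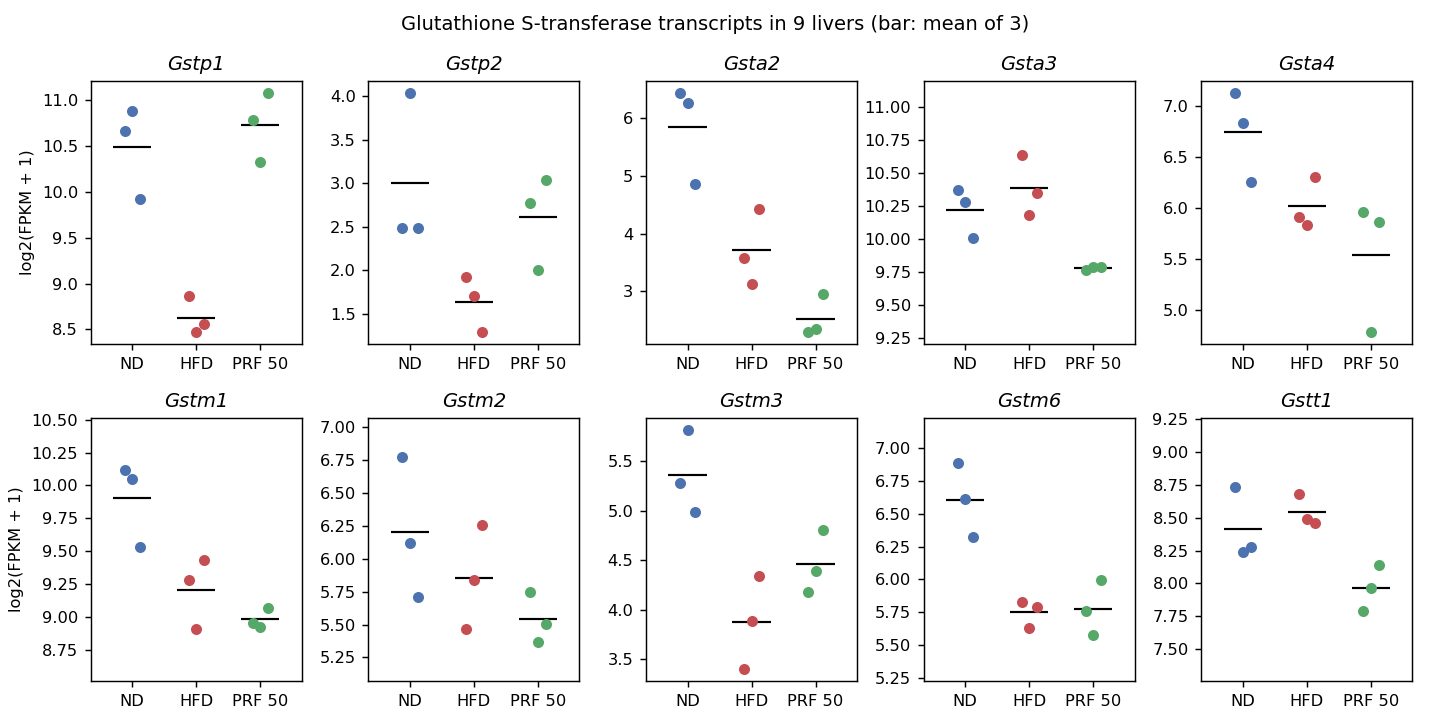
Log2(FPKM + 1) of each of the 10 genes in each of the 9 livers, by group (ND, HFD, PRF 50), with points for livers and bars for group means. Gstp1 lies between 8.47 and 8.86 in the HFD livers and at 9.92 or above in all others.

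As class sums, the Pi genes held 33.6% ± 4.69 (SD, n = 3) of the FPKM of all 10 genes in the ND livers, 13.7% ± 0.835 in the HFD livers and 48.5% ± 5.59 in the PRF 50 livers. The Pi sum was 1629, 1896 and 973 FPKM in ND livers 6, 7 and 9. It was 466, 356 and 378 FPKM in HFD livers 1, 2 and 3, and 1762, 1289 and 2166 FPKM in PRF 50 livers 3, 9 and 10. Every HFD liver was thus below every other liver, while the ND and PRF 50 livers overlapped. The Alpha sum was 1372 ± 215, 1429 ± 221 and 932 ± 16.8 FPKM in the ND, HFD and PRF 50 livers. The Mu sum was 1185 ± 251, 723 ± 121 and 627 ± 39.7 FPKM in the same order. These sums are descriptions and were not tested.

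**Figure D2:**
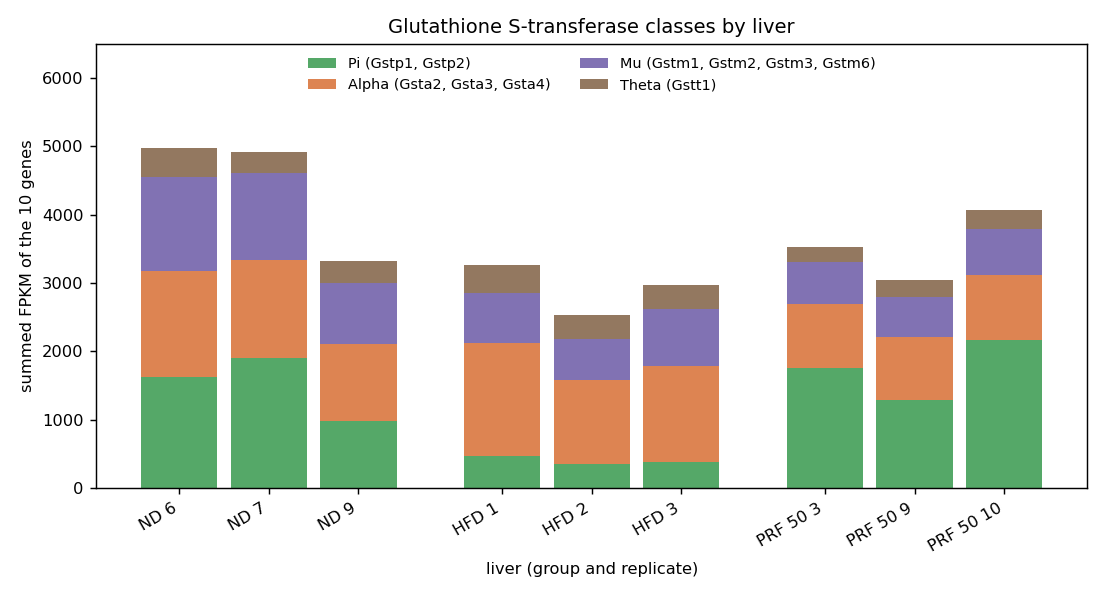
Summed FPKM of the Pi, Alpha and Mu genes and of the Theta gene Gstt1 in each liver, by group. The Pi sum is between 356 and 466 FPKM in the HFD livers and between 973 and 2166 FPKM in the others.

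Groups were compared with limma, with p-values adjusted over all genes tested, and a gene was called at an adjusted p under 0.05. All 10 genes reached the mean of 1 FPKM needed for testing in each comparison. In HFD vs. ND, which asks what the diet changed, 3 of 10 were called lower (Gstp1, Gstm3 and Gstm6), where 0.631% of the 9978 genes tested were called lower. No gene of the 10 was called higher by limma, where 0.702% of all genes were, and at an unadjusted p under 0.05 the count of higher genes was also 0, beside 7 lower, where 1504 of the 9978 passed in either direction. The groups did not overlap in 6 of the 10, against 20.7% of all genes. An unadjusted p under 0.05 with a fold above 2 was met by 4 of the 10, against 1.34% of all genes. The median log2 fold change of the 10 was -0.79, against -0.01 over all genes tested.

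In PRF 50 vs. HFD, which asks what PRF changed on the high-fat diet, 1 of 10 was called higher (Gstp1), where 1.43% of the 10084 genes tested were called higher. None was called lower by limma, where 2.16% of all genes were, and at an unadjusted p under 0.05 there were 2 higher and 3 lower, where 2039 of the 10084 passed in either direction. The groups did not overlap in 5 of the 10, against 26.2% of all genes, and 2 met the rule of p and fold, against 2.10%. The median of the 10 was -0.27, against -0.02 over all genes. Against ND, PRF 50 had 1 of 10 called lower (Gsta2, PRF 50 vs. ND), where 0.298% of the 10051 genes tested were called lower. None was called higher by limma, where 0.159% of all genes were, and 0 were higher at an unadjusted p under 0.05, beside 8 lower, where 1256 of the 10051 passed in either direction. The groups did not overlap in 7 of the 10, against 19.9% of all genes, and 2 met the rule of p and fold, against 1.76%. The median of the 10 was -0.74, against -0.03 over all genes. Each group enters 2 of the 3 comparisons, so the comparisons are not independent of each other.

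**Figure D3:**
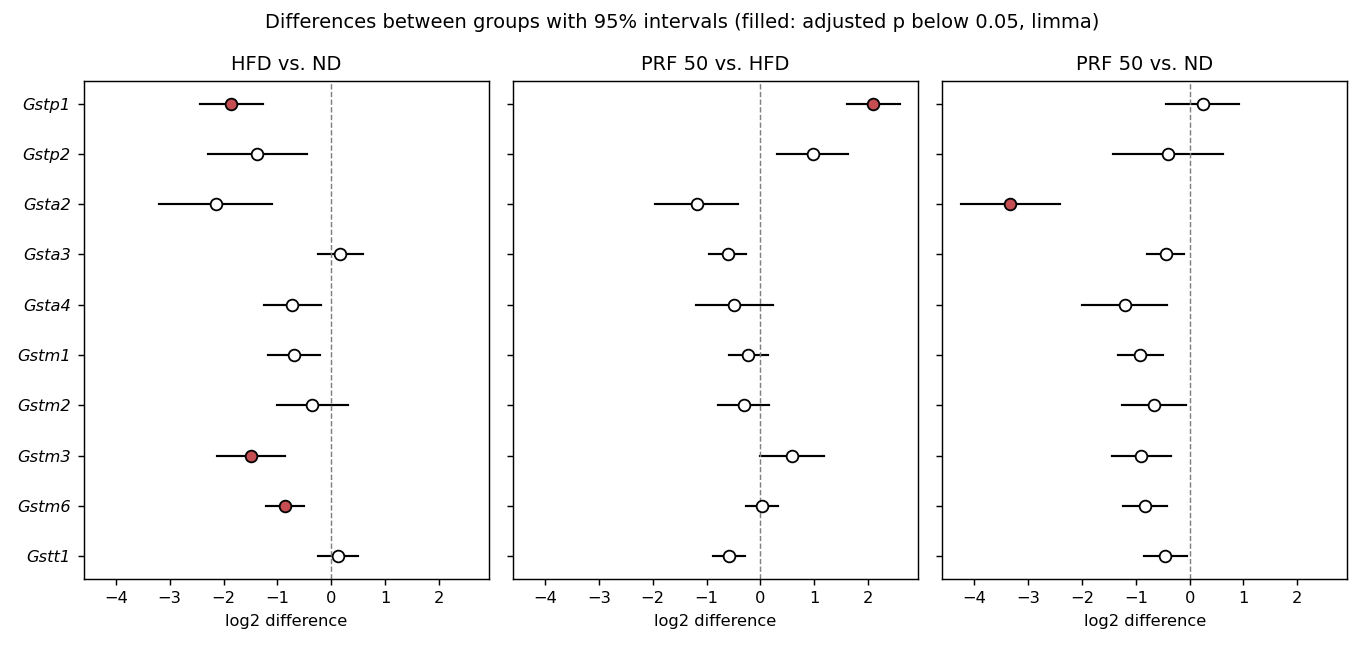
Log2 fold change with its 95% interval from limma for each of the 10 genes in HFD vs. ND, PRF 50 vs. HFD and PRF 50 vs. ND. Gstp1 is at -1.86, 2.10 and 0.24, and Gsta2 at -2.15, -1.18 and -3.33.

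Gstp1 encodes the main Pi-class enzyme of mouse liver, and Gstp2 a near copy of it. The stretches of 250 bases before their RefSeq starts (GRCm38.p6, minus strand) are shown because the 2 genes lie together and their values were lowest in the same group. They are chr19:4037913-4038162 for Gstp1 and chr19:4042222-4042471 for Gstp2. Capitals mark TGAGTCA, the letters of an AP-1 type element, searched on both strands.
Gstp1: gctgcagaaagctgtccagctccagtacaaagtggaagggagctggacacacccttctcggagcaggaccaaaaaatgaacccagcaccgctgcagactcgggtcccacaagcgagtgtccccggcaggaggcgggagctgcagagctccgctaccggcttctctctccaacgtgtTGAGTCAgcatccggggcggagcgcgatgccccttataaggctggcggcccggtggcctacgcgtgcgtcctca
Gstp2: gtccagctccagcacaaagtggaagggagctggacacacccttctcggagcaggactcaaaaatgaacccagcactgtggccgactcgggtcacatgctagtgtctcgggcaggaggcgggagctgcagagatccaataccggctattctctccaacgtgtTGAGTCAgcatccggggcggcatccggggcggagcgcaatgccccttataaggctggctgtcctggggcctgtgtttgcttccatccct
RefSeq promoters were found for 9 of the 10 genes, all but Gsta4. Gstm1 had 2 start sites and Gstm6 had 3. Matches of the 9 were counted by gene, whereas those of all promoters were counted by promoter. TGAGTCA occurred in those of 2 of the 9, Gstp1 and Gstp2, beginning 74 and 89 bases before the start, and in 4.46% of 32851 promoters of the same length. This motif was chosen after the sequences had been seen, and a match is a description, not a site. The 2 windows had identical bases at 207 of 265 aligned positions (78.1%), with a longest shared run of 43 bases. Exons of the same gene in GENCODE M21 cover 73 of the 250 bases for Gstp1 and 42 for Gstp2. The letters TGACNNNGC are a form of the core of an antioxidant response element. They were found on either strand in 1 of the 9 (Gsta3) and in 10.2% of all promoters. The search took only C after TGA. In both printed windows the capitals are followed by gc, giving TGAGTCAGC, which departs from these letters only by G for that C. That form was not searched.

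Gstp1 had values of 10.67, 10.88 and 9.92 in ND livers 6, 7 and 9, and of 8.86, 8.47 and 8.56 in HFD livers 1, 2 and 3, on the log2(FPKM + 1) scale. In PRF 50 livers 3, 9 and 10 it had 10.78, 10.33 and 11.08. All 3 HFD livers lay below all other livers, and the ND and PRF 50 livers overlapped. In HFD vs. ND, Gstp1 fell by 1.86 in log2 units (standard error 0.254, limma adjusted p = 0.0192, lower in 3 of 3 HFD livers). In bulk liver, fewer cells of a type and less RNA per cell cannot be told apart. This call was lost without HFD liver 2, HFD liver 3, ND liver 6 or ND liver 7 (adjusted p of 0.0759, 0.0777, 0.0634 and 0.0688 from limma) and without a minimum level (0.0810). Over all alternatives the adjusted p from limma ranged from 0.00522 to 0.0810.

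The same gene, in PRF 50 vs. HFD, rose by 2.10 (standard error 0.209, 95% interval 1.61 to 2.59, limma adjusted p = 0.0116, higher in 3 of 3 PRF 50 livers), a ratio of mean FPKM of 4.36. It lay between 1.92 and 2.30 under the alternatives tried, and its adjusted p from limma ranged from 0.00485 to 0.0529, the last without HFD liver 3. PRF 50 vs. ND gave 0.24 (95% interval -0.44 to 0.92, limma adjusted p = 0.761), and -0.044 without ND liver 9. Gstp2 was far less abundant, with 2.49, 4.04 and 2.49 in the ND livers, 1.92, 1.70 and 1.29 in the HFD livers, and 2.78, 2.0 and 3.04 in the PRF 50 livers. Its HFD values were again below all others, but no comparison passed the test. Its log2 fold changes were -1.37 in HFD vs. ND (limma adjusted p = 0.176), -0.40 in PRF 50 vs. ND (limma adjusted p = 0.737; 0.12 without ND liver 7) and 0.97 in PRF 50 vs. HFD (limma adjusted p = 0.110). The last was called without PRF 50 liver 9, with an adjusted p of 0.0400 from limma, in a range of 0.0400 to 0.278 over the alternatives.

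Markers of Kupffer cells, the resident macrophages of the liver, also differed between the PRF 50 and HFD livers. The list was chosen with earlier results of these data known. The paper lists several of its genes, such as Cd5l, C1qb, Marco and Lyz2, as raised by PRF, so the count is no independent result. All 12 listed markers were tested, and 10 were called higher in PRF 50 vs. HFD, where 1.43% of all genes were. Among them were Adgre1 (log2 fold change 1.60), Cd5l (1.59), Timd4 (1.49) and C1qb (1.45). The remaining 2, named after their values were seen, were Marco (2.61, limma adjusted p = 0.135) and Lyz2 (1.26, limma adjusted p = 0.115). The sum of the 12, led by Cd5l, was 751, 425 and 488 FPKM in PRF 50 livers 3, 9 and 10 and 138, 222 and 221 FPKM in HFD livers 1, 2 and 3. In ND livers 6, 7 and 9 the sum was 108, 203 and 266 FPKM, so that the ND and HFD livers overlapped in this sum. The number of markers called was 7 without HFD liver 1, 1 without HFD liver 2, 0 without HFD liver 3 (limma), 1 without PRF 50 liver 3 and 5 without PRF 50 liver 10, 2 without a minimum level, and 7 with all 9 livers in 1 fit or a minimum of 10 FPKM. In HFD vs. ND, 0 of the 12 were called by limma and 0 had an unadjusted p under 0.05, and in PRF 50 vs. ND 0 were called and 12 were higher at an unadjusted p under 0.05. In the latter comparison 4 were called with all 9 livers in 1 fit, 2 without ND liver 9 and 1 without PRF 50 liver 9. The part of these cells in the Gstp1 difference was not tested.

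Liver genes with a known sex bias were also called between these groups. The lists were chosen with earlier results of these data known. The paper lists Serpina1e, Selenbp2, Hsd3b5, Moxd1, Cyp2b9, Cyp4a14, Acot3 and Cyp4a10 as changed by PRF, so the counts are no independent result. Over all genes tested, 0.702% were called higher and 0.631% lower in HFD vs. ND, and 1.43% and 2.16% in PRF 50 vs. HFD. In PRF 50 vs. ND these shares were 0.159% and 0.298%. Of 18 tested genes more abundant in male mouse liver, 9 were called lower and 0 higher in HFD vs. ND (limma, with 12 lower and 0 higher at an unadjusted p under 0.05). The log2 fold changes were -3.91 for Serpina1e, -3.64 for Cyp4a12b, -2.68 for Hsd3b5 and -2.34 for Selenbp2. In PRF 50 vs. HFD, 11 of 19 were called higher, with Serpina1e at 4.20, Selenbp2 at 3.17 and Hsd3b5 at 2.81, and Moxd1 listed at 0 in the HFD livers. The 1 called lower was Ces2e (-0.89), named after its values were seen. Of 11 tested genes more abundant in female liver, 6 were called higher in HFD vs. ND, with the largest changes in Cyp2b9 (5.52), Cyp2b13 (2.36), Acot3 (2.22) and Cyp4a14 (1.76). In PRF 50 vs. HFD 8 were called lower, with the largest changes in Cyp2b9 (-6.0), Cyp4a14 (-5.36), Acot3 (-4.27) and Cyp4a10 (-4.05). With 1 liver left out, 2 of the 6 female-biased calls in HFD vs. ND and 2 of the 8 in PRF 50 vs. HFD held each time. These were, in HFD vs. ND, Cyp2b9 and Cyp4a14, the latter lost with all 9 livers in 1 fit, while Cyp2b13 held in 2 of 6 fits and Acot3 was lost without HFD liver 3 or ND liver 7. Those of PRF 50 vs. HFD were Cyp2b9 and Acot3, while Cyp4a14 was lost without HFD liver 2 or 3 and Cyp4a10 also without PRF 50 liver 3 or 10. PRF 50 vs. ND had 3 of 19 male-biased genes called (Moxd1 and C6 higher, Cyp4a12b lower) and 1 of 8 female-biased genes (Cd36, lower). Leaving out 1 liver at a time, 4 of the 9 male-biased calls in HFD vs. ND held each time, among them Cyp4a12b and Selenbp2, while Serpina1e was lost without HFD liver 2 or ND liver 6 or 7 and Hsd3b5 without HFD liver 2 or any ND liver. Only 2 of the 12 in PRF 50 vs. HFD held each time, none of them named above for that comparison. There Serpina1e, Selenbp2 and Ces2e were each lost without HFD liver 2 or 3 or PRF 50 liver 3, Hsd3b5 also without PRF 50 liver 10, and Moxd1 without HFD liver 2 or 3. In HFD vs. ND, the male-biased count fell to 5 without HFD liver 2 or ND liver 7, and the female-biased count to 3 without HFD liver 3 or ND liver 6 and 2 without ND liver 7, but rose to 8 without HFD liver 1. Male-biased genes called higher in PRF 50 vs. HFD fell to 2 without HFD liver 2, 2 without HFD liver 3 and 4 without PRF 50 liver 3. Without PRF 50 liver 10 there were 7, beside 1 called lower. The 8 female-biased calls in that comparison fell to 2 without HFD liver 2, 5 without PRF 50 liver 9 and 3 without HFD liver 3, PRF 50 liver 3 or PRF 50 liver 10, and rose to 9 without HFD liver 1. In PRF 50 vs. ND, C6 held in 1 of 6 such fits, Cyp4a12b in 2, Moxd1 in 4 and Cd36 in 1. There the male-biased count was 0 without ND liver 7 and 1 without PRF 50 liver 3 or 9, and the female-biased count was 0 without ND liver 6 or 7 or PRF 50 liver 3 or 10 and 2 without ND liver 9 or PRF 50 liver 9 (limma). Without a minimum level, 4 male-biased and 2 female-biased genes were called in HFD vs. ND, 4 male-biased higher and 4 female-biased lower in PRF 50 vs. HFD, and 1 and 0 in PRF 50 vs. ND. The calls lost in this way included Serpina1e, Cyp4a12b, Hsd3b5, Cyp2b13 and Acot3 in HFD vs. ND, Selenbp2, Hsd3b5 and Cyp4a10 in PRF 50 vs. HFD, and Moxd1, Cyp4a12b and Cd36 in PRF 50 vs. ND. Cd36 was also lost there with all 9 livers in 1 fit, although 3 female-biased genes were then called lower. With a minimum of 10 FPKM, 3 female-biased genes were called in HFD vs. ND, 6 in PRF 50 vs. HFD and 2 in PRF 50 vs. ND. Cyp2b13 was then lost in both HFD vs. ND and PRF 50 vs. HFD. Whether these genes and Gstp1 share a cause was not tested.

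In the Alpha class, Gsta2 encodes an inducible enzyme that also reduces lipid peroxides. It had 6.44, 6.26 and 4.86 in ND livers 6, 7 and 9, 3.57, 3.13 and 4.42 in HFD livers 1, 2 and 3, and 2.29, 2.33 and 2.94 in PRF 50 livers 3, 9 and 10. The 3 groups did not overlap at all, with ND highest and PRF 50 lowest. Gsta2 fell by 3.33 on the log2 scale in PRF 50 vs. ND (standard error 0.399, limma adjusted p = 0.0217, lower in 3 of 3 PRF 50 livers), a ratio of mean FPKM of 0.0772. That call was lost without ND liver 6 (adjusted p = 0.0995), ND liver 7 (0.0945), PRF 50 liver 3 (0.0960) or PRF 50 liver 9 (0.0590), and without a minimum level (0.0940), all from limma. The adjusted p from limma ranged from 0.00376 to 0.0995. The other comparisons did not pass, with -2.15 in HFD vs. ND (limma adjusted p = 0.0798) and -1.18 in PRF 50 vs. HFD (limma adjusted p = 0.102). HFD vs. ND passed without ND liver 9 (limma adjusted p = 0.0238, in a range of 0.0238 to 0.249) and with all 9 livers in 1 fit (0.0474). The near copy Gsta1 had 2.50, 1.88 and 1.32 in the ND livers, 1.02, 1.07 and 1.62 in the HFD livers, and 0.17, 0.50 and 0.48 in the PRF 50 livers, so the ND and HFD livers overlapped in it.

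Gsta3, known in mice for the conjugation of aflatoxin epoxide, was the most abundant Alpha gene. It had 10.37, 10.28 and 10.01 in the ND livers, 10.64, 10.18 and 10.35 in the HFD livers, and 9.76, 9.79 and 9.79 in the PRF 50 livers. The PRF 50 livers were below all others and close to each other, and the ND and HFD livers overlapped. Its log2 fold change was -0.61 in PRF 50 vs. HFD (limma adjusted p = 0.0734), -0.44 in PRF 50 vs. ND (adjusted p = 0.287) and 0.17 in HFD vs. ND (adjusted p = 0.712). The first of these passed with quantile normalization (limma adjusted p = 0.0315) and without a trend (0.0497), in a range of 0.0315 to 0.191. Gsta4, which clears the lipid aldehyde hydroxynonenal, ranged from 6.26 to 7.13 in the ND, 5.83 to 6.30 in the HFD and 4.78 to 5.96 in the PRF 50 livers. None of its comparisons passed in limma, the lowest adjusted p being 0.198 for PRF 50 vs. ND at -1.21, beside -0.72 in HFD vs. ND and -0.48 in PRF 50 vs. HFD.

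The Mu class was highest in the ND livers. Gstm1, the most abundant Mu gene, had 10.12, 10.05 and 9.53 in the ND livers, 9.28, 8.91 and 9.44 in the HFD livers, and 8.96, 8.93 and 9.07 in the PRF 50 livers. The ND livers were above all others, and the HFD and PRF 50 livers overlapped. Its log2 fold changes of -0.69 in HFD vs. ND (limma adjusted p = 0.190) and -0.92 in PRF 50 vs. ND (limma adjusted p = 0.0914) did not pass. The latter passed without ND liver 9, with an adjusted p of 0.0394 from limma in a range of 0.0394 to 0.280. PRF 50 vs. HFD gave -0.22 (limma adjusted p = 0.469). Gstm2, another Mu subunit, overlapped between the groups in each comparison, with group means of 6.20, 5.85 and 5.54 in the ND, HFD and PRF 50 livers. Its log2 fold changes of -0.35, -0.31 and -0.66 in HFD vs. ND, PRF 50 vs. HFD and PRF 50 vs. ND were not called by limma (lowest adjusted p 0.343).

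Among the 10 genes followed, Gstm3 and Gstm6 were the Mu genes called in HFD vs. ND. Gstm3 had 5.28, 5.82 and 4.99 in the ND livers, 3.40, 3.88 and 4.35 in the HFD livers, and 4.18, 4.40 and 4.81 in the PRF 50 livers. Its ND values were above all others. Gstm3 fell by 1.48 in HFD vs. ND (standard error 0.273, limma adjusted p = 0.0483, lower in 3 of 3 HFD livers). The call was lost whichever 1 of the 6 livers was left out, HFD livers 1, 2 and 3 and ND livers 6, 7 and 9, with an adjusted p from limma of 0.0832, 0.143, 0.0586, 0.107, 0.140 and 0.0560. It was also lost with quantile normalization (0.0586), without a trend (0.0535) and without a minimum level (0.133), in a range of 0.0343 to 0.143. Gstm6 had 6.88, 6.61 and 6.32 in the ND livers, 5.83, 5.63 and 5.79 in the HFD livers, and 5.76, 5.58 and 6.00 in the PRF 50 livers. The ND livers were again above all others. Gstm6 fell by 0.85 in HFD vs. ND (standard error 0.153, limma adjusted p = 0.0446, lower in 3 of 3 HFD livers). That call was lost without HFD liver 1 (adjusted p = 0.0768), HFD liver 2 (0.171), HFD liver 3 (0.160), ND liver 6 (0.0773) or ND liver 7 (0.154) and without a minimum level (0.101), in a range of 0.0223 to 0.171 from limma.

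PRF 50 vs. HFD gave 0.58 for Gstm3 (95% interval -0.01 to 1.18, limma adjusted p = 0.257) and 0.03 for Gstm6 (95% interval -0.26 to 0.32, limma adjusted p = 0.930). For Gstm6 the sign turned without HFD liver 2 (-0.032) and without PRF 50 liver 10 (-0.082). In PRF 50 vs. ND, Gstm3 was at -0.90 (limma adjusted p = 0.172) and Gstm6 at -0.83 (limma adjusted p = 0.101). Gstm6 passed there with all 9 livers in 1 fit, with an adjusted p of 0.0417 from limma in a range of 0.0417 to 0.280.

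Gstt1, the Theta enzyme that acts on small halogenated compounds, had 8.73, 8.24 and 8.28 in the ND livers, 8.68, 8.49 and 8.46 in the HFD livers, and 7.79, 7.96 and 8.14 in the PRF 50 livers. The PRF 50 livers were below all others, as for Gsta3. Its log2 fold change in PRF 50 vs. HFD was -0.58 (standard error 0.127, 95% interval -0.88 to -0.28, limma adjusted p = 0.0559), just outside the threshold. It passed with a minimum mean of 10 FPKM (limma adjusted p = 0.0481), in a range of 0.0481 to 0.158. HFD vs. ND gave 0.13 (limma adjusted p = 0.759) and PRF 50 vs. ND -0.45 (limma adjusted p = 0.341).

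Within the groups, ND liver 9 had the lowest of the 3 ND values in 9 of the 10 genes, and PRF 50 liver 10 had the highest of its group in 8. HFD liver 2 and PRF 50 liver 9 were each the lowest of their group in 6, and HFD livers 1 and 3 were each the highest in 5. The relative depths of ND liver 9 and PRF 50 liver 10 were 1.11 and 0.962, and the part of depth in these values was not tested. Among pairs of the 10 genes, the profiles over the 9 livers were closest for Gsta3 and Gstt1, with a root mean square difference of 0.14 between centred log2 values, and for Gstm1 and Gstm6 with 0.16. They were farthest apart for Gstp1 and Gsta2 with 1.67, and Gstp1 and Gstp2 were 0.58 apart.

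Measured the same way against 10048 genes, the profile of Gstp1 was most like those of C8b (0.41), C6 (0.43), Cyp7b1 (0.44), Cdh1 (0.44) and Cyp1a2 (0.47). C8b, C6 and Cyp7b1 are on the list of male-biased genes. The profile of Gsta2 had no neighbour as close, with Cyp3a11 (0.60), Cyp2c55 (0.76), Serpinb1a (0.84), Gsta1 (0.85) and Raet1d (0.85) as the nearest. Gstm3 was nearest to Elovl3 (0.30), Ndrg1 (0.32), Rpl30 (0.36), Hhex (0.38) and Gas7 (0.39). Elovl3 is on the list of male-biased genes as well. Gstt1 was nearest to Uqcr10 (0.09), Slc25a5 (0.10), Cmbl (0.10), Acot13 (0.10) and Acadl (0.11). The values were centred but not scaled, so genes that vary more over the livers tend to lie farther from any other gene. These distances are descriptions over 9 livers in 3 groups, and say nothing of shared control.

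**Figure D4:**
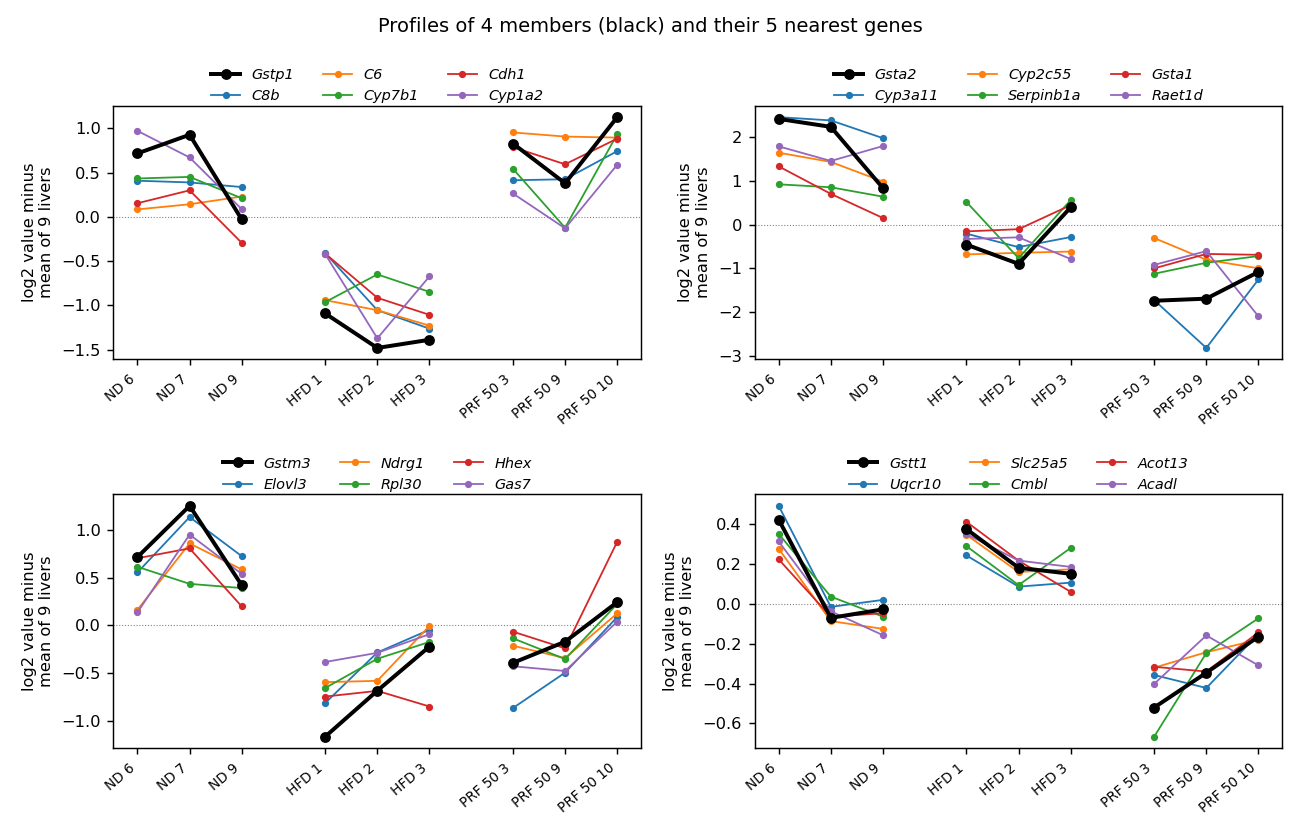
Centred log2 values over the 9 livers for Gstp1, Gsta2, Gstm3 and Gstt1 and the 5 genes nearest to each by root mean square difference. Lines join livers of 1 group only to make a gene easy to follow, and the nearest genes are C8b (0.41), Cyp3a11 (0.60), Elovl3 (0.30) and Uqcr10 (0.09).

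The tables held 13 other cytosolic and related GST genes. Of these, 10, 9 and 10 were tested in HFD vs. ND, PRF 50 vs. HFD and PRF 50 vs. ND. In the same order, 1, 1 and 2 were called lower (Gstm4 and Gstt3), where 0.631%, 2.16% and 0.298% of all genes were. None was called higher by limma. At an unadjusted p under 0.05 from limma, 2, 3 and 7 were lower and 1, 0 and 0 higher. Gstm4 had 5.31, 5.67 and 5.28 in the ND livers, 4.50, 4.59 and 4.41 in the HFD livers, and 4.30, 4.08 and 4.17 in the PRF 50 livers, and the 3 groups did not overlap. It fell by 0.92 in HFD vs. ND (limma adjusted p = 0.0215) and by 1.24 in PRF 50 vs. ND (limma adjusted p = 0.0152). Without 1 liver its adjusted p reached 0.0974 in the first (lost without HFD 2, HFD 3 or ND 7) and 0.0683 in the second (lost without ND 7, PRF 50 3 or PRF 50 9). Gstt3 fell by 0.96 in PRF 50 vs. HFD (limma adjusted p = 0.0434) and by 1.32 in PRF 50 vs. ND (limma adjusted p = 0.0457), and neither call held when any 1 liver was left out (up to 0.124 and 0.140). Neither gene was called without a minimum level, and Gstt3 was also lost with quantile normalization in PRF 50 vs. HFD and without a trend in PRF 50 vs. ND. Other genes of the list were gained. Without a minimum level 1 was called higher in PRF 50 vs. HFD, while lower calls rose to 2 in HFD vs. ND with quantile normalization and to 3 in PRF 50 vs. ND with all 9 livers in 1 fit. Of the microsomal family, an unrelated fold with the same chemistry, 3 of 6 genes were tested. Alox5ap, a family member that serves leukotriene synthesis in myeloid cells, rose by 0.97 in PRF 50 vs. HFD (limma adjusted p = 0.0336) and 1.12 in PRF 50 vs. ND (limma adjusted p = 0.0495). Of the fits with 1 liver left out, the first call was kept only in that without PRF 50 liver 9 (adjusted p up to 0.0924 in the others), and the second in none (up to 0.179). Both calls were lost without a minimum level, and the second also with quantile normalization and without a trend. At a minimum of 10 FPKM the gene was not tested. Kupffer markers were higher in the same PRF 50 livers, and their part in the Alox5ap difference was not tested. In HFD vs. ND, 0 of the 3 were called by limma, with 0 at an unadjusted p under 0.05, against 1 higher in PRF 50 vs. HFD and 1 higher and 1 lower in PRF 50 vs. ND.

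Genes that make or use glutathione were followed with their own lists, beside 133 of 9978, 362 of 10084 and 46 of 10051 genes called over all in HFD vs. ND, PRF 50 vs. HFD and PRF 50 vs. ND. Of 12 tested genes of glutathione synthesis, 0 were called by limma in any comparison, with 5, 2 and 3 at an unadjusted p under 0.05 in the same order. With quantile normalization 1 was called higher in HFD vs. ND. Gclc, the catalytic subunit of the rate-limiting enzyme, was at 0.01, -0.50 and -0.49 in these comparisons. Of 13 genes of glutathione use tested in PRF 50 vs. HFD, 1 was called, with 6 lower and 0 higher at an unadjusted p under 0.05 and a list median of -0.33. It was Glrx5 of mitochondrial iron-sulfur assembly, which fell by 0.53 (limma adjusted p = 0.0274). Of 13 tested in HFD vs. ND and 14 in PRF 50 vs. ND, 0 were called by limma, with 1 and 2 at an unadjusted p under 0.05. Among 13 tested genes of conjugate export and mercapturate formation, Nat8, which acetylates cysteine conjugates, fell by 1.88 in HFD vs. ND (limma adjusted p = 0.0228). The basolateral exporter Abcc3 fell by 1.0 in PRF 50 vs. HFD (limma adjusted p = 0.0249) and 1.09 in PRF 50 vs. ND (limma adjusted p = 0.0128). Of these calls, Glrx5 was lost without HFD liver 2 or 3 or PRF 50 liver 3 or 10 (adjusted p up to 0.0985 from limma), and Nat8 without HFD liver 2 or ND liver 6, 7 or 9 (up to 0.0983). Abcc3 was lost in PRF 50 vs. HFD without any liver but HFD 2 (up to 0.0710) and in PRF 50 vs. ND without ND liver 7 or PRF 50 liver 3 (up to 0.0747), while without PRF 50 liver 10 that comparison had 2 genes of the list called lower. Glrx5 and Nat8 were also lost with all 9 livers in 1 fit, Glrx5 with quantile normalization, and Nat8 and Abcc3 (PRF 50 vs. HFD) without a minimum level. The canalicular exporter of conjugates, Abcc2, was at 0.08, -0.06 and 0.02.

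NRF2, encoded by Nfe2l2, is the best known activator of GST genes, and KEAP1 holds it in check. Nfe2l2 was at 0.03, -0.31 and -0.28 in HFD vs. ND, PRF 50 vs. HFD and PRF 50 vs. ND, Keap1 at -0.14, 0.01 and -0.14, and the target Nqo1 at 0.58, -0.56 and 0.02, none of them called. Of 22 tested regulators and targets, 0 were called by limma in HFD vs. ND, with 2 higher and 2 lower at an unadjusted p under 0.05. The unadjusted counts were 1 higher and 8 lower in PRF 50 vs. HFD, and 1 higher and 5 lower in PRF 50 vs. ND, with 1 gene called lower in each. PRF 50 vs. HFD had 3 called lower with a minimum of 10 FPKM and without a trend, and PRF 50 vs. ND had 2 without ND liver 9. The epoxide hydrolase Ephx1 fell by 0.79 in PRF 50 vs. HFD (limma adjusted p = 0.0420), and Ugdh, which makes UDP-glucuronate, fell by 1.04 in PRF 50 vs. ND (limma adjusted p = 0.0426). The xenobiotic receptors Nr1i2 (PXR) and Nr1i3 (CAR) fell by 0.67 and 0.93 in PRF 50 vs. HFD (limma adjusted p = 0.0369 and 0.0336). They were at 0.47 and 0.72 in HFD vs. ND (limma adjusted p = 0.226 and 0.148) and at -0.20 and -0.21 in PRF 50 vs. ND (limma adjusted p = 0.566 and 0.650), not called. Cyp3a11, a known target of both, fell by 2.60 in HFD vs. ND (limma adjusted p = 0.00120) and by 4.20 in PRF 50 vs. ND (limma adjusted p = 0.00684), and was at -1.60 in PRF 50 vs. HFD (limma adjusted p = 0.0610). With 1 liver left out at a time, the Cyp3a11 call in HFD vs. ND held in 6 of 6 fits and that in PRF 50 vs. ND in 5 of 6 (adjusted p = 0.0683 without ND liver 7). For PRF 50 vs. HFD, the calls of Ephx1 and Nr1i2 held in 0 of 6 (adjusted p up to 0.140 and 0.124 from limma), and that of Nr1i3 was lost without HFD liver 1 or 3 or PRF 50 liver 3 or 10 (up to 0.115). Ugdh was lost in each such fit but that without ND liver 9 (up to 0.156). The calls of Ephx1, Nr1i2, Nr1i3 and Ugdh were all lost without a minimum level, those of Ephx1, Nr1i3 and Ugdh with quantile normalization, and that of Ephx1 with all 9 livers in 1 fit. The receptor list also holds target genes such as Cyp3a11. Of its tested genes, 1 of 12, 2 of 11 and 1 of 12 were called in HFD vs. ND, PRF 50 vs. HFD and PRF 50 vs. ND. The gene called in both comparisons with ND was Cyp3a11, not a receptor. Both counts against ND were 2 with all 9 livers in 1 fit, with a pseudocount of 0.1 and without ND liver 9, that in HFD vs. ND also 2 with quantile normalization and a minimum of 10 FPKM, and that in PRF 50 vs. ND 0 without ND liver 7. The count in PRF 50 vs. HFD was 3 with all 9 livers in 1 fit, with a minimum of 10 FPKM and without PRF 50 liver 9, 1 with quantile normalization and without HFD liver 2 or PRF 50 liver 10, and 0 without HFD liver 1 or 3 or PRF 50 liver 3 and without a minimum level.

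**Figure D5:**
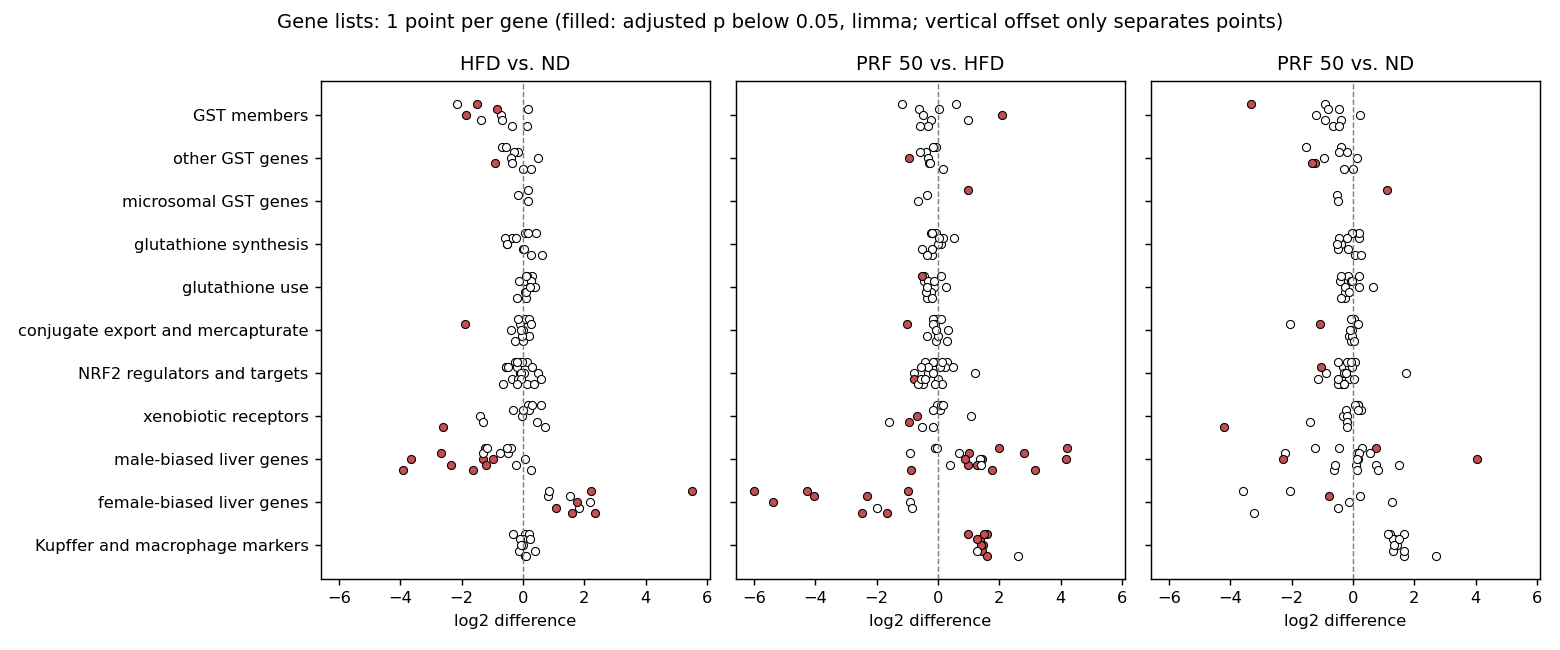
Log2 fold changes of the tested genes of each list in HFD vs. ND, PRF 50 vs. HFD and PRF 50 vs. ND, with 1 point per gene, filled where called by limma. The medians of the 10 GST genes are -0.79, -0.27 and -0.74.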

How the data were processed

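Poly(A) RNA of 9 livers was sequenced, 3 each of ND, HFD and PRF 50, as 1 library per mouse. The authors trimmed, mapped (TopHat, mm10) and quantified the reads (Cufflinks, FPKM), and deposited values on a log2 scale after geometric normalization between samples. The values were read as log2(FPKM + 1), the 1 being inferred from a lowest value of 0. Groups were compared with limma 3.58.1 in R 4.3.3 (lmFit, eBayes with a trend, 3 livers against 3), without covariates, for genes averaging 1 FPKM or more in the 6 livers, with Benjamini-Hochberg adjustment over all of them. No paired analysis was possible because any 2 groups share at most 1 mouse number and nothing in the labels ties those mice together. The 10 GST genes are named whatever their result, other GST genes when called, from each of the other lists up to 4 called genes with the largest change plus Nfe2l2, Keap1, Nqo1, Gclc, Abcc2, Nr1i2 and Nr1i3, and the 5 genes nearest to Gstp1, Gsta2, Gstm3 and Gstt1. Members and lists were chosen with earlier results of these data known. Alternatives were all 9 livers in 1 fit, each liver left out, a pseudocount of 0.1, scaling by median of ratios, quantile normalization, eBayes without a trend, and no minimum level or one of 10 FPKM. Promoters are from RefSeq (GRCm38.p6), and gene positions and transcripts from GENCODE M21.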

Additional observations from a re-analysis of the deposited data

How the results depend on the processing

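Of 386 log2 fold changes of the 10 genes under the alternatives, 348 kept their direction and side of the threshold, 8 passed it newly, 26 no longer passed and 4 changed sign, none of them called. With 1 liver left out, Gstm6 in PRF 50 vs. HFD ranged from -0.082 (without PRF 50 liver 10; -0.032 without HFD liver 2) to 0.13, Gstp2 in PRF 50 vs. ND from -0.66 to 0.12 (without ND liver 7), and Gstp1 in PRF 50 vs. ND from -0.044 (without ND liver 9) to 0.44. Without a minimum level more genes are tested, and limma called 0 of the 10 and 37 genes in HFD vs. ND, 126 genes in PRF 50 vs. HFD, and 0 of the 10 and 11 genes in PRF 50 vs. ND. In PRF 50 vs. HFD, 2 of the 10 were called with a minimum of 10 FPKM (Gstp1 and Gstt1), with quantile normalization and without a trend (Gstp1 and Gsta3 in both). With all 9 livers in 1 fit, PRF 50 vs. ND gave 2 of the 10 (Gsta2 and Gstm6) and 107 genes. With 1 liver left out, the counts lay between 0 and 3 of the 10 and between 35 and 140 genes in HFD vs. ND, 0 and 2 and 15 and 242 in PRF 50 vs. HFD, and 0 and 2 and 4 and 71 in PRF 50 vs. ND, with fewer livers in each fit. Other causes of these shifts were not tested. At a minimum of 10 FPKM, Gstp2 gave no value in any comparison, nor did Gsta2 in PRF 50 vs. HFD. With 3 livers a group, unknown depth and shared reads among near copies, values of Gstp2, Gsta2 and other genes of low level are the least certain.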

Other observations

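Position along the liver lobule was followed with 14 pericentral and 12 periportal hepatocyte genes, all tested. None was called by limma in any comparison with the settings used, though up to 2 pericentral genes and 1 periportal gene were under some alternatives. At an unadjusted p under 0.05, 3, 3 and 4 pericentral genes and 7, 1 and 1 periportal genes passed in HFD vs. ND, PRF 50 vs. HFD and PRF 50 vs. ND. The medians were -0.10, -0.02 and -0.05 for the pericentral and -0.32, 0.19 and -0.20 for the periportal genes.

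Of the hepatocyte markers, 8 were tested and 0 called by limma in each comparison, with 1, 2 and 0 at an unadjusted p under 0.05. For PRF 50 vs. HFD, 1 of them was called lower with a minimum of 10 FPKM, with quantile normalization and without a trend. Of the endothelial, stellate cell, cholangiocyte and lymphocyte markers, 0 were called by limma in each comparison. Of the endothelial markers 7 were tested, with 1, 1 and 0 at an unadjusted p under 0.05. Of the stellate cell markers 7, 7 and 6 were tested, with 2, 2 and 0 at that level. In HFD vs. ND, 1 of them was called with all 9 livers in 1 fit and without HFD liver 1 or ND liver 9. Of the cholangiocyte markers 1, 1 and 2 were tested, with 0, 0 and 1. Lymphocyte markers reached the minimum level in PRF 50 vs. ND alone, with 1 gene tested and 0 at an unadjusted p under 0.05. The summed endothelial markers were lowest in HFD liver 1 with 17.5 FPKM, against 42.1 and 57.5 in HFD livers 2 and 3.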
